A study of Mus musculus with 24 samples.

Results

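Letrozole, a drug that blocks aromatase, was compared with no drug in mammary glands of 20-month-old mice of the CYP19A1 line. The comparison held 3 glands with letrozole and 3 untreated glands, taken by their column names from a table of 24 samples, and the same criterion left 19325 of 55487 genes to be tested (at least 1 TPM in at least 3 of the 24 samples). TPM is a share of all RNA in a library after division by transcript length.

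The CYP19A1 mice had the genotype MMTV-rtTA/tet-op-CYP19A1 and the Esr1 mice, used for comparison, MMTV-rtTA/tet-op-Esr1. In both, the transgene depends on the rtTA activator, whose MMTV promoter limits it to the cells in which that promoter is active, and all of the 20-month groups had 8 months of transgene induction. Letrozole (2.5 mg) or tamoxifen (25 mg) was given from 18 months of age as a pellet under the skin that released it over 60 days. The groups used here were CYP19A1 letrozole, CYP19A1 tamoxifen, CYP19A1 untreated, Esr1 letrozole and Esr1 untreated, each of 3 glands at 20 months. The 18-month CYP19A1 glands, with 6 months of induction and no drug, are cited for a few levels. Replicates of a group carry different animal numbers. Sample descriptions of the untreated 20-month glands hold the tag PLA, which the labels leave unexplained, so it is unknown here whether these mice bore a drug-free pellet. No sample came from a mouse without a transgene.

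Aromatase, the product of CYP19A1, turns androgens into oestrogens, and letrozole lowers oestrogen by blocking it. Oestrogen acts in the gland through oestrogen receptor alpha, encoded by Esr1, in the hormone-sensing luminal cells, where it induces the progesterone receptor gene Pgr, Greb1 and Areg. Areg encodes amphiregulin, a ligand of the EGF receptor that carries the oestrogen signal to neighbouring epithelial cells, and progesterone in turn acts through Wnt4 and RANKL.

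The promoters of Areg, Aoc1 and Tmed3 are shown because Areg had the largest difference among the oestrogen targets and the other 2 are the protein-coding genes that passed the test described next. Each is 300 bases of RefSeq sequence (GRCm38.p6, the release of the mm10 build named in the submitters' processing notes), read 5′ to 3′ on the gene's strand, from 250 bases before the annotated start to 50 after it. The Areg promoter lies at chr5:91139349-91139648 on the plus strand, that of Aoc1 at chr6:48895005-48895304 on the plus strand and that of Tmed3 at chr9:89704994-89705293 on the minus strand. Capitals mark the cyclic AMP response element TGACGTCA in Areg, which begins at base 190. In Aoc1 they mark the oestrogen receptor half-site (GGTCA or TGACC), which begins at base 173. Areg also held 1 half-site, left in lower case, and Tmed3 held neither motif. Another promoter of Aoc1, not shown, held 0 half-sites.
Areg: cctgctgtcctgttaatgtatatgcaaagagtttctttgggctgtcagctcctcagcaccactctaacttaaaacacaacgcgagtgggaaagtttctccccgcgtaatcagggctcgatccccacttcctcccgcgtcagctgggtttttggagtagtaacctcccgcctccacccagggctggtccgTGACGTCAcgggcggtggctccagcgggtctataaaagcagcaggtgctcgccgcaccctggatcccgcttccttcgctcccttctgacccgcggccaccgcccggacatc
Aoc1: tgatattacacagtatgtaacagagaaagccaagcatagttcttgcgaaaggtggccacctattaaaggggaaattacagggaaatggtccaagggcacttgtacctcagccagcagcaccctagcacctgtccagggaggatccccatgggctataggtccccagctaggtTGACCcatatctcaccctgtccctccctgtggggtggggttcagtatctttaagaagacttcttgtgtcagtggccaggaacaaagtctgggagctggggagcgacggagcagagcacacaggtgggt
Tmed3: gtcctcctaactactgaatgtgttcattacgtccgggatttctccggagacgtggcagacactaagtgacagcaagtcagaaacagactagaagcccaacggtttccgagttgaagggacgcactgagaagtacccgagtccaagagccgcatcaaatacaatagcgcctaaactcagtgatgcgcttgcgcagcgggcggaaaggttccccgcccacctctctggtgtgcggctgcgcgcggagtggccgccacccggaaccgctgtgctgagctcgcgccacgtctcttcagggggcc

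The full oestrogen response element (GGTCA and TGACC with any 3 bases between them), its half-site and the cyclic AMP response element were searched on both strands; every full element also contains the half-site. The full element was in 0 of the 41 genes of the text for which a promoter was found. It was in 0.07% of all 32851 RefSeq promoters of this length. A half-site was in 21 of the 41 genes, Areg, Aoc1, Greb1 and Esr1 among them, and in 40.5% of all promoters. TGACGTCA was in 3 of the 41 genes (Areg, Dio2 and Errfi1) and in 1.79% of all promoters. Some genes had more than 1 promoter and were counted if any held a match. Their shares are therefore not directly comparable with those of single promoters. These are matches of letters in a short window and not measured binding.

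A microRNA, miR-7034, is shown because its gene also passed the test. Its gene lies at chr5:135735806-135735889, inside the span of Tmem120a (chr5:135735490-135744172), and RefSeq gives both mature arms, with the seed (bases 2 to 8) in capitals. The arms have different seeds.
mmu-miR-7034-3p: uUGGCCUUccuucccuacccuaca
mmu-miR-7034-5p: uCCGGGAGggauggaugugcu

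The 6 libraries had 14410 to 16656 genes at 1 TPM or more. The lowest count was that of letrozole replicate 1, which was also the lowest of the 24 libraries, and the others had 16109 to 16656. The table keeps no read depth, so depth is unknown. The 7S RNA models took 26.1 to 33.7% of TPM and mitochondrially encoded genes 21.0 to 27.9%, against 19.9 to 38.8% and 9.82 to 27.9% over the 24 libraries. Skeletal muscle genes were abundant in these whole glands, with a summed 24300 to 26500 TPM in letrozole glands and 18100 to 31100 TPM in untreated glands. Epithelial, fat and stromal markers were all present, as a mammary gland holds. In the Esr1 line, 1 untreated library (replicate 2) had 17.4% of its TPM in ribosomal RNA models. Within the 6 libraries, 2 with letrozole stood apart in tissue markers. Letrozole replicate 1 had the lowest epithelial level, a mean log2(TPM + 1) of 3.12 over the 10 luminal and pan-epithelial genes, against 4.52 and 4.99 in the other letrozole glands and 5.40, 5.41 and 4.79 in untreated glands. Letrozole replicate 3 had the lowest level of the 12 fibroblast and collagen genes (4.83, against 6.05 and 6.32 in the other letrozole glands and 6.68, 6.36 and 6.30 in untreated glands) and the lowest white fat level (7.30, against 8.77 and 8.57 in the other letrozole glands and 8.31, 8.07 and 8.21 in untreated glands). Where leaving out either library moved the difference of a gene tested this way by over 1.5 times, the value without it is given.

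With letrozole, 4 genes fell and 0 rose at an adjusted p under 0.05 in the CYP19A1 line (limma on log2(TPM + 1), Benjamini-Hochberg over all genes tested). These are 0.0207% and 0% of the genes tested. At an unadjusted p under 0.05 there were 660 lower genes (3.42%) and 73 higher genes (0.378%). The 3 letrozole glands all lay below the 3 untreated glands for 1644 genes (8.51%) and all above them for 206 genes (1.07%). The median difference over all genes was -0.10 on the log2 scale, and scaling each library by its median ratio to the others moved it by 0.11, to 0.01. After that scaling 1080 genes (5.59%) lay wholly lower and 828 (4.28%) wholly higher, and 8 genes fell and 1 rose, the 4 genes below among them. Differences below are letrozole minus untreated on the log2(TPM + 1) scale, with the standard error of the fit, and understate the change of genes near or under 1 TPM.

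**Figure D1:**
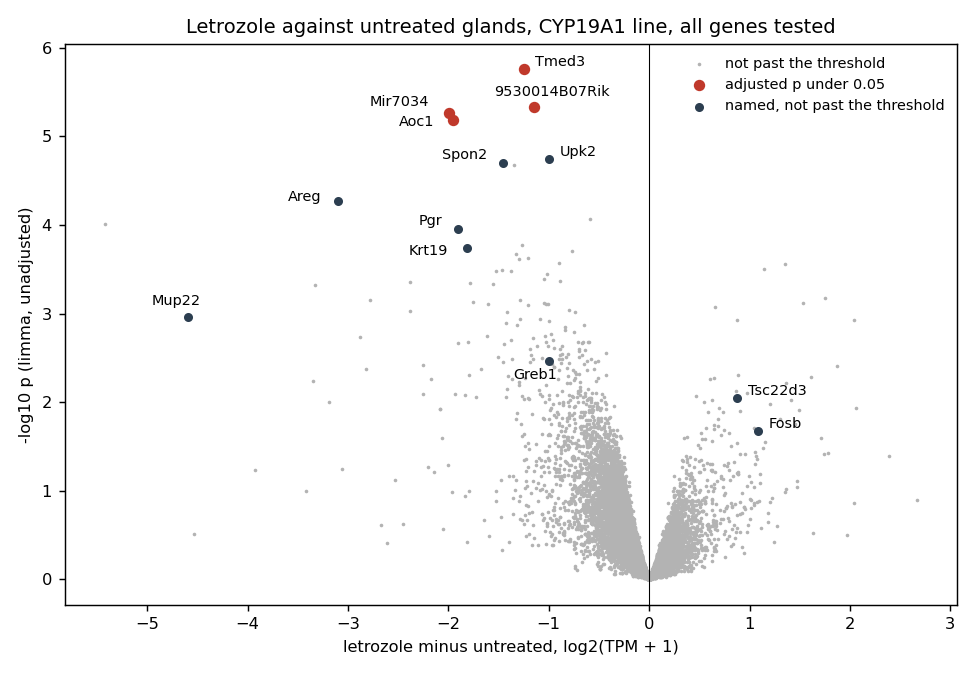
Difference between letrozole and untreated glands of the CYP19A1 line (x, log2 of TPM + 1) against the unadjusted limma p (y, -log10) for the 19325 genes tested, 1 point a gene. The 4 genes with an adjusted p of 0.032 are red and all lie on the lower side; named genes that missed the threshold are dark.

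Tmed3, a p24 family protein that carries cargo between the endoplasmic reticulum and the Golgi, had 19.4, 28.7 and 22.8 TPM with letrozole, against 47.4, 67.7 and 57.0 TPM untreated. It fell by 1.25 ± 0.19 (SE, n = 3 each; adjusted p = 0.032), and every letrozole gland was below every untreated gland. Tmed3 lies at chr9:89699203-89705043. Tamoxifen glands had 41.0, 35.2 and 43.3 TPM, below the untreated glands and above the letrozole glands.

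Aoc1, diamine oxidase, which breaks down histamine and putrescine, was nearly absent with letrozole at 0.01, 0.16 and 0.05 TPM, against 0.94, 6.34 and 4.0 TPM untreated. The difference was -1.95 ± 0.32 (adjusted p = 0.032). Elsewhere Aoc1 was 0.05, 0.05 and 0.06 TPM with tamoxifen, 0.01 to 0.26 TPM with letrozole in the Esr1 line, 0.11 to 0.17 TPM in untreated Esr1 glands and 0.24 to 1.39 TPM in CYP19A1 glands at 18 months, whose highest gland was above the lowest untreated gland at 20 months. It lies at chr6:48895255-48909188.

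The other 2 genes that fell are not protein-coding and are outside the rule for naming genes, named because the call holds so few. The long non-coding RNA 9530014B07Rik (chr13:53635892-53639201) had 0.07, 0.39 and 0.05 TPM with letrozole and 1.20, 1.95 and 1.63 TPM untreated, a difference of -1.15 ± 0.19 (adjusted p = 0.032). It was also low with tamoxifen, at 0.19, 0 and 0 TPM. Mir7034, whose arms are printed above, was listed at 0 in all 3 letrozole glands and at 3.57, 2.20 and 3.31 TPM in untreated glands (adjusted p = 0.032). It was also listed at 0 in the tamoxifen glands, in both Esr1 groups used here and in the CYP19A1 glands at 18 months, and 1 Esr1 gland at 18 months had 2.90 TPM. No other library reached 1 TPM, so Mir7034 met the filter of 3 samples only through the untreated CYP19A1 glands. Its entry into the test was therefore not independent of the comparison. Its host Tmem120a had 30.6, 26.7 and 20.6 TPM with letrozole and 30.7, 25.5 and 37.3 TPM untreated, which overlap. A precursor this short inside a host gene is hard to separate from it in libraries of total RNA, so the level of Mir7034 is uncertain.

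These calls depended on single libraries. Without letrozole replicate 1, Tmed3, Aoc1, Mir7034 and 9530014B07Rik each had an adjusted p of 0.27. Without letrozole replicate 3 their adjusted p was 0.051 to 0.064, without untreated replicate 2 it was 0.23 to 0.26, and without untreated replicate 3 it was 0.14 to 0.24. Without letrozole replicate 2, Aoc1 and Mir7034 had 0.12, and without untreated replicate 1, Mir7034 had 0.12. The sizes moved little except for Aoc1, at -1.54 without untreated replicate 2 and -2.50 without untreated replicate 1. With the epithelial level as a covariate Tmed3 was at -1.15 and Aoc1 at -2.04 (adjusted p = 0.25 each), and with the collagen level at -1.12 and -2.05 (adjusted p = 0.20 each).

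**Figure D2:**
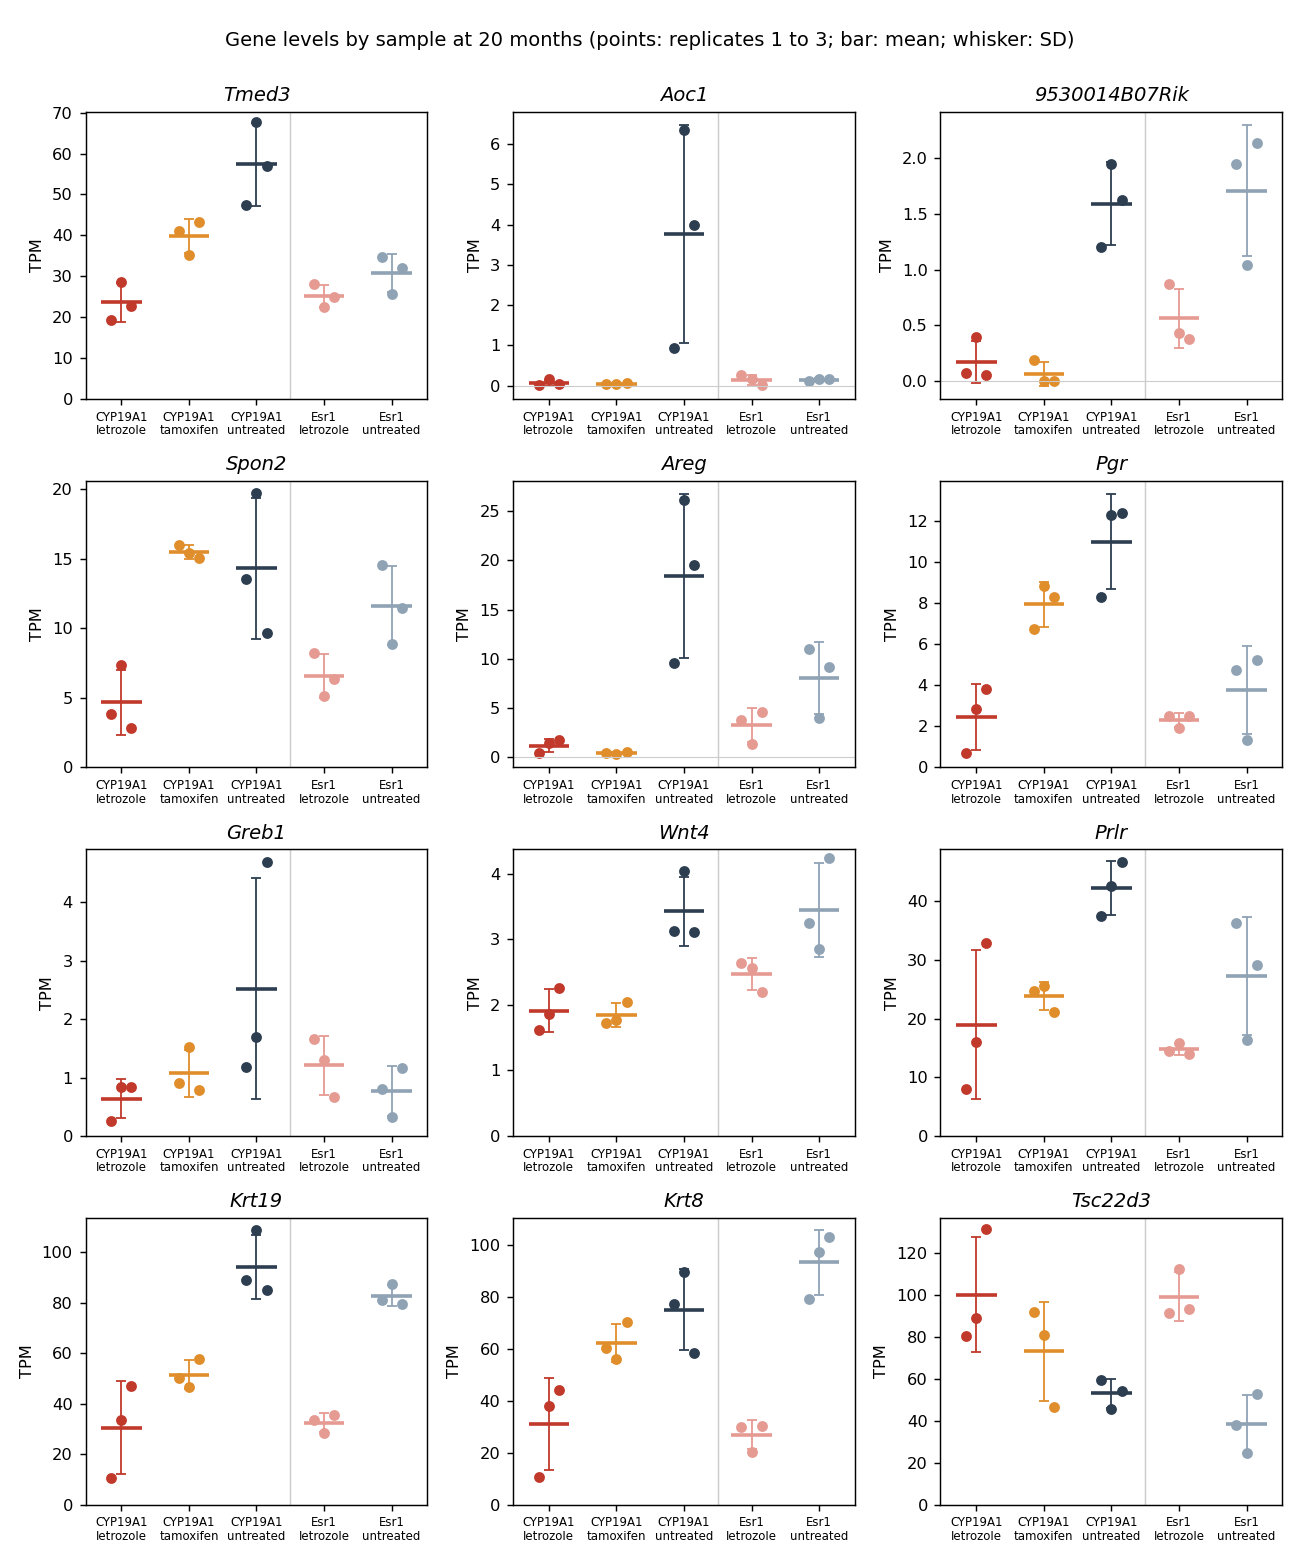
TPM of 12 genes in the CYP19A1 glands with letrozole, tamoxifen or no drug and the Esr1 glands with letrozole or no drug, all at 20 months (points are the 3 replicates, bars the mean, whiskers the SD). Areg was 0.45 to 1.70 TPM with letrozole and 0.28 to 0.54 TPM with tamoxifen, below the 9.59 to 26.2 TPM of untreated CYP19A1 glands.

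The receptor and the enzyme themselves came next. Esr1 had 14.7, 14.4 and 12.6 TPM with letrozole and 19.2, 13.3 and 19.1 TPM untreated (-0.28 ± 0.21, adjusted p = 1.0), and the groups overlapped. The mouse gene Cyp19a1 was too low to be tested, at 0.01, 0.12 and 0.01 TPM with letrozole and 0, 0.07 and 0 TPM untreated. It is unknown here whether that row can take reads of the transgene, so it is no check of the transgene.

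Among the oestrogen response targets, Areg and Pgr showed the widest gaps, and none of the 15 tested members passed. Areg had 0.45, 1.42 and 1.70 TPM with letrozole and 9.59, 26.2 and 19.5 TPM untreated. The difference was -3.09 ± 0.59 (adjusted p = 0.13); the ratio of untreated to letrozole mean TPM was 15.5, and all 3 letrozole glands were lower. It passed under median-ratio scaling (-3.05, adjusted p = 0.043) and under no other setting tried, with an adjusted p of 0.80 without letrozole replicate 1 (-2.82). Pgr, the progesterone receptor, had 0.70, 2.84 and 3.82 TPM with letrozole and 8.30, 12.3 and 12.4 TPM untreated (-1.90 ± 0.39, adjusted p = 0.20), again without overlap. Greb1, a cofactor of the oestrogen receptor, had 0.25, 0.83 and 0.83 TPM with letrozole and 1.18, 1.69 and 4.68 TPM untreated (-1.0 ± 0.30, adjusted p = 0.66).

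Over that list, 5 of 15 members (Areg, Pgr, Greb1, Stc2 and Xbp1) lay wholly below the untreated glands and 0 wholly above, where 8.51% and 1.07% of all genes did. Stc2, a secreted glycoprotein, had 5.42, 9.59 and 12.5 TPM with letrozole and 16.7, 19.2 and 20.9 TPM untreated (-1.03 ± 0.34, adjusted p = 0.86). The median of the list was -0.37, beside -0.10 for all genes, and -0.22 beside 0.01 after median-ratio scaling. Other textbook targets overlapped between the groups: the cyclin gene Ccnd1 had 5.84, 11.8 and 15.4 TPM with letrozole and 17.0, 18.9 and 13.3 TPM untreated, and Ctsd, cathepsin D, had 170 to 263 TPM with letrozole and 241 to 296 TPM untreated. Tff1, another target in human breast cells, was listed at 0 in all 3 letrozole glands and was too low to be tested.

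Of the 12 hormone-sensing luminal genes, a list that shares Areg and Pgr with the targets and Pgr and Esr1 with the receptors, all 12 had a negative difference and 6 lay wholly below the untreated glands (Areg, Pgr, Prlr, Prom1, Ly6a and Wnt4). Of all genes 8.51% did so. The median was -0.58, and -0.49 after median-ratio scaling, when 6 members and 5.59% of all genes lay wholly below. Prlr, the prolactin receptor, had 8.01, 15.9 and 32.9 TPM with letrozole and 37.6, 42.7 and 46.6 TPM untreated (-1.32 ± 0.35, adjusted p = 0.48), and stood at -0.85 without letrozole replicate 1 (adjusted p = 1.0). Prom1, a surface marker of these cells, had 2.20, 3.09 and 3.67 TPM with letrozole and 7.39, 8.36 and 8.64 TPM untreated (-1.21 ± 0.31, adjusted p = 0.39). The mean level of the list was 1.88, 2.24 and 2.59 with letrozole and 3.05, 3.11 and 3.20 untreated, so the groups did not overlap, and letrozole replicate 1, the gland lowest in epithelial genes, was lowest here too. Foxa1, a transcription factor that opens chromatin for the oestrogen receptor, overlapped, with 0.61, 1.40 and 4.49 TPM with letrozole and 4.02, 4.46 and 5.19 TPM untreated (-1.0 ± 0.34, adjusted p = 0.95, and -0.61 without letrozole replicate 1). In RNA of a whole gland, fewer hormone-sensing cells and less RNA of these genes per cell cannot be told apart.

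In the progesterone, RANKL and R-spondin axis, 3 of 9 members lay wholly lower (Pgr, Wnt4 and Id4), where 8.51% of all genes did, and the median was -0.49, beside -0.10 for all genes. Wnt4, a signal that progesterone induces, had 1.62, 1.86 and 2.26 TPM with letrozole and 3.13, 4.04 and 3.11 TPM untreated (-0.60 ± 0.22, adjusted p = 1.0). Tnfsf11, the gene of RANKL, was near 0 in both groups, at 0, 0 and 0.05 TPM with letrozole and 0.02, 0.03 and 0.04 TPM untreated. The same held for Calca, the calcitonin gene, at 0.32 to 0.79 TPM with letrozole and 0.31 to 0.99 TPM untreated. CYP19A1 glands at 18 months had 11.6, 7.09 and 0.28 TPM of Tnfsf11 and 98.2, 62.9 and 1.12 TPM of Calca, so at 20 months there was little of either left to compare.

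Among the 12 tested genes of oestrogen and androgen synthesis and inactivation, all had a negative difference (median -0.20, and -0.06 after median-ratio scaling) and 2 lay wholly lower, Akr1c14 and Akr1cl, where 8.51% of all genes did. Akr1c14, a hydroxysteroid dehydrogenase, had 6.17, 8.39 and 4.12 TPM with letrozole and 9.99, 9.77 and 14.4 TPM untreated (-0.80 ± 0.35, adjusted p = 1.0). Akr1c18, which inactivates progesterone, had 3.99, 3.26 and 1.58 TPM with letrozole and 3.93, 7.28 and 6.07 TPM untreated (-0.80 ± 0.38, adjusted p = 1.0), with overlap, and stood at -0.52 without letrozole replicate 3. The Akr1c genes are close relatives that can trade reads in estimates of this kind. Of the 6 steroid receptors tested, Pgr alone lay wholly lower.

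Of the 10 luminal and pan-epithelial genes 0 passed. All 10 had a negative difference, with a median of -0.92, and 3 (Krt8, Krt19 and Krt7) lay wholly below the untreated glands, where 8.51% of all genes did. The keratin gene Krt19 had 10.6, 33.6 and 47.2 TPM with letrozole and 89.0, 109 and 85.0 TPM untreated (-1.82 ± 0.39, adjusted p = 0.27). Its partner Krt8 had 10.8, 38.1 and 44.4 TPM with letrozole and 77.2, 89.7 and 58.5 TPM untreated (-1.45 ± 0.41, adjusted p = 0.59). Letrozole replicate 1 was lowest for both. Without it Krt19 stood at -1.22 and Krt8 at -0.83 (adjusted p = 1.0 each). Epcam, an adhesion protein of all gland epithelium, had 10.8, 30.9 and 50.7 TPM with letrozole and 59.4, 56.9 and 33.4 TPM untreated, which overlap.

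Letrozole replicate 1 was the lowest gland for both the epithelial level and the level of the oestrogen targets. Untreated replicate 3 had the lowest untreated epithelial level (4.79). Its target level (4.53) was close to those of untreated replicates 1 and 2 (4.47 and 4.45). By summed TPM of the targets it was the lowest untreated gland, at 961 against 1190 and 1020. With the epithelial level as a covariate Areg was at -2.35 (adjusted p = 0.57), Pgr at -1.55 (adjusted p = 0.76), Krt19 at -0.89 (adjusted p = 0.25) and Krt8 at -0.47 (adjusted p = 0.91). The covariate is built from Krt8, Krt19 and 8 other genes, so its effect on these 2 is partly by construction. Without letrozole replicate 1, Pgr was at -1.46 (adjusted p = 1.0).

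The 12 basal and myoepithelial genes all had a negative difference (median -0.54), and 3 (Myh11, Cnn1 and Lgr5) lay wholly lower, where 8.51% of all genes did. Krt14, the basal keratin, had 4.98, 11.49 and 9.33 TPM with letrozole and 19.0, 19.3 and 11.4 TPM untreated (-0.90 ± 0.35, adjusted p = 1.0). Krt17 had 1.43, 5.83 and 2.85 TPM with letrozole and 8.02, 7.38 and 4.45 TPM untreated (-0.90 ± 0.35, adjusted p = 1.0), and Trp63, the basal transcription factor, 4.27, 5.87 and 8.54 TPM with letrozole and 6.93, 6.96 and 6.87 TPM untreated. In the secretory and progenitor luminal list all 10 were negative (median -0.40) and 1 lay wholly lower, Gata3, a luminal transcription factor, with 3.19, 6.35 and 11.01 TPM with letrozole and 12.1, 12.4 and 11.48 TPM untreated (-0.86 ± 0.31, adjusted p = 0.99). Without letrozole replicate 1, Krt14 stood at -0.59, Krt17 at -0.54 and Gata3 at -0.47 (adjusted p = 1.0 each).

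Milk protein genes differed more among untreated glands than between the groups. Wap, whey acidic protein, had 0.11, 0.29 and 0.20 TPM with letrozole and 219, 24.3 and 0.08 TPM untreated (-3.92 ± 1.94, adjusted p = 1.0). Csn1s2b, a casein, had 0.15, 0.12 and 0.06 TPM with letrozole and 65.1, 3.00 and 0 TPM untreated (-2.53 ± 1.35, adjusted p = 1.0). Untreated replicate 3 was as low as the letrozole glands for both. Over the 20 proliferation genes the median was -0.27, beside -0.10 for all genes. Of these 20, 1 member, Mcm2, lay wholly lower, where 8.51% of all genes did. Cdk1, which drives mitosis, had 0.69, 0.68 and 1.67 TPM with letrozole and 2.50, 1.79 and 1.5 TPM untreated (-0.56 ± 0.30, adjusted p = 1.0), and Top2a 0.73, 1.63 and 1.76 TPM with letrozole and 3.48, 3.30 and 1.53 TPM untreated (-0.65 ± 0.39, adjusted p = 1.0).

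**Figure D3:**
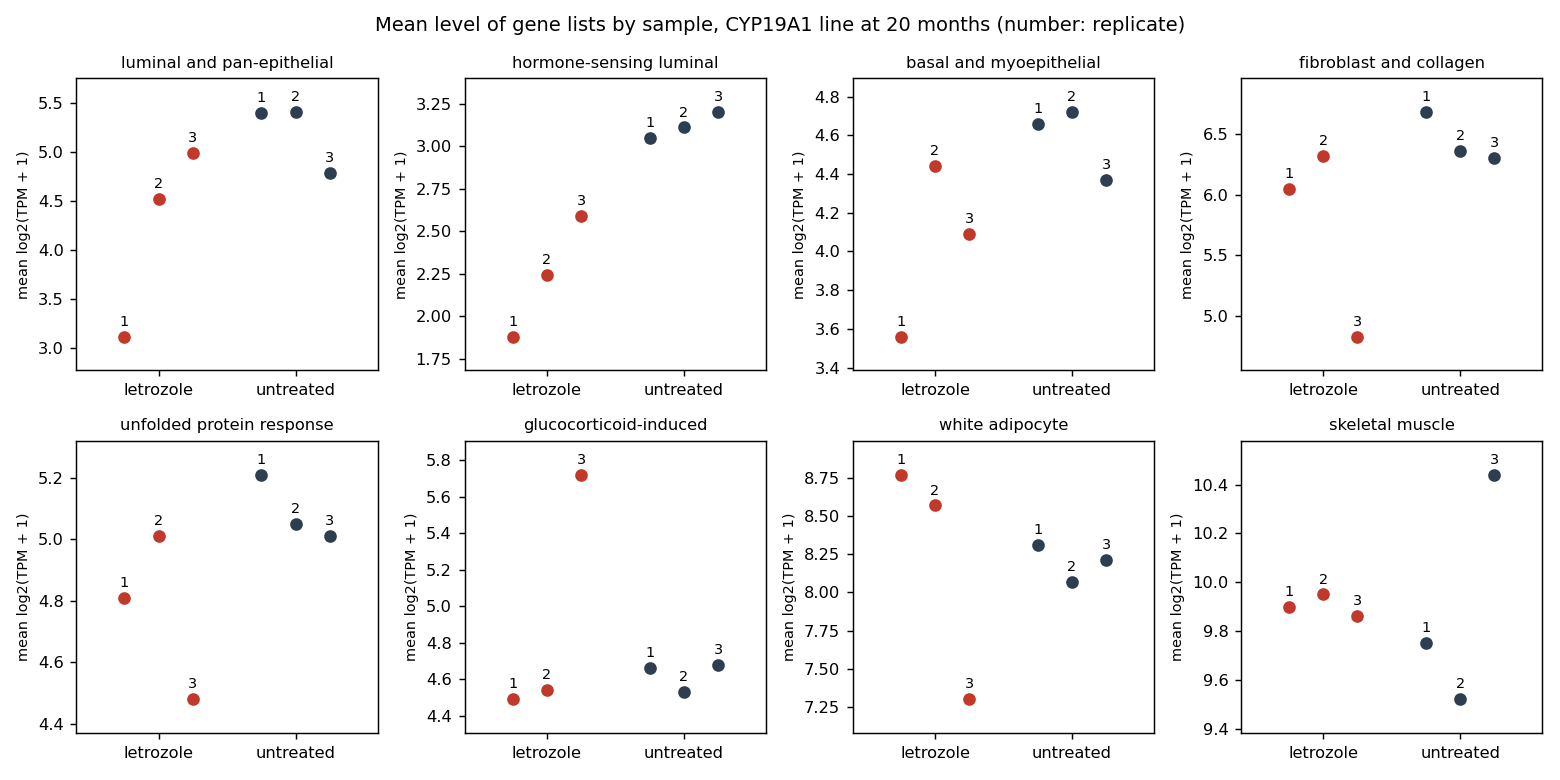
Mean log2(TPM + 1) of 8 gene lists in each letrozole and untreated gland of the CYP19A1 line (points are glands, numbers the replicate). Letrozole replicate 1 is lowest for luminal and pan-epithelial genes (3.12) and letrozole replicate 3 is lowest for fibroblast and collagen genes (4.83) and highest for glucocorticoid-induced genes (5.72).

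Of the 12 fibroblast and collagen genes 0 passed. All 12 had a negative difference (median -0.79, and -0.65 after median-ratio scaling), and 4 (Pdgfra, Dcn, Lum and Fbn1) lay wholly below the untreated glands, where 8.51% of all genes did; the other 8 overlapped. Pdgfra, the PDGF receptor of fibroblasts, had 23.3, 26.0 and 20.8 TPM with letrozole and 41.2, 38.1 and 41.1 TPM untreated (-0.76 ± 0.24, adjusted p = 0.71). Postn, a matrix protein, had 36.0, 72.4 and 24.7 TPM with letrozole and 118, 113 and 66.9 TPM untreated (-1.24 ± 0.40, adjusted p = 0.79), with overlap. For the collagen gene Col1a1 the letrozole glands split, at 49.2, 58.9 and 11.2 TPM, against 74.7, 53.1 and 50.9 TPM untreated, and the low one is replicate 3. Its difference was -0.84 ± 0.42 (adjusted p = 1.0), and -0.12 without letrozole replicate 3 (adjusted p = 0.98). Postn was then at -0.90 (adjusted p = 0.89). With the collagen level as a covariate, Postn was at -0.54 and Pdgfra at -0.38 (adjusted p = 0.91 and 0.90); both genes belong to the list behind that covariate.

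Spon2, a secreted matrix protein (chr5:33213518-33218254), was among the genes closest to the threshold. It had 3.87, 7.33 and 2.84 TPM with letrozole and 13.5, 19.7 and 9.65 TPM untreated (-1.45 ± 0.26, adjusted p = 0.059), without overlap. Under 2 of 17 other settings Spon2 passed: rescaling without 7S, ribosomal and mitochondrial RNA, and leaving out letrozole replicate 2. Cdh11, the cadherin of mesenchymal cells, had 2.95, 4.64 and 2.07 TPM with letrozole and 9.40, 12.6 and 7.56 TPM untreated (-1.38 ± 0.32, adjusted p = 0.28). Igsf10, of the immunoglobulin superfamily, had 3.34, 4.60 and 2.23 TPM with letrozole and 8.14, 7.44 and 7.49 TPM untreated (-1.02 ± 0.24, adjusted p = 0.29). In all 3 genes letrozole replicate 3, low in collagen genes, was the lowest gland, and the other letrozole glands were also below every untreated gland. With the collagen level as a covariate, Spon2 was at -1.08 (adjusted p = 0.34), Cdh11 at -0.83 (adjusted p = 0.61) and Igsf10 at -0.58 (adjusted p = 0.58).

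The remaining genes with the smallest p were a mixed set, each with no overlap and none past the threshold. Upk2, a uroplakin named after its values were seen, had 0.19, 0.33 and 0.37 TPM with letrozole and 1.59, 1.44 and 1.72 TPM untreated (-1.0 ± 0.18, adjusted p = 0.059). Under 4 of 17 other settings Upk2 passed, median-ratio scaling among them (limma adjusted p = 0.016). The membrane protein gene Tmem53 had 3.14, 3.04 and 3.73 TPM with letrozole and 5.40, 5.32 and 5.63 TPM untreated (-0.59 ± 0.12, adjusted p = 0.18). Rasgrf1, an activator of Ras, had 0.91, 2.10 and 3.74 TPM with letrozole and 4.90, 6.33 and 8.68 TPM untreated (-1.30 ± 0.29, adjusted p = 0.28). All of these lay lower with letrozole. R3hdml (-1.32), Zbtb8a (-0.90), the cytochrome P450 gene Cyp3a57 (-1.47), the cathepsin gene Ctsr (-1.52) and Tmem86a (-1.05) had adjusted p of 0.27 to 0.30.

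Among genes of protein folding in the endoplasmic reticulum none passed. Of 14 unfolded protein response genes 11 had a negative difference and 6 were wholly below the untreated glands (Pdia6, Pdia4, Creld2, Hyou1, Hsp90b1 and Xbp1), where 8.51% of all genes were, with a median of -0.37. After median-ratio scaling 3 were, where 5.59% of all genes were, with a median of -0.22. Pdia6, a disulfide isomerase, had 29.5, 34.9 and 21.2 TPM with letrozole and 46.6, 43.9 and 41.6 TPM untreated (-0.63 ± 0.18, adjusted p = 0.62). Pdia4, of the same family, had 25.4, 29.2 and 18.0 TPM with letrozole and 35.9, 34.6 and 33.7 TPM untreated (-0.53 ± 0.18, adjusted p = 0.95). The stress regulators Ddit3 (0.13) and Atf4 (0.10) had differences of the other sign. Letrozole replicate 3 was lowest for both isomerases, and without it Pdia4 stood at -0.34 (adjusted p = 0.94).

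Glucocorticoid-induced genes were the list with the highest median, 0.22 (0.37 after median-ratio scaling). Of its 11 members 3 lay wholly above the untreated glands, where 1.07% of all genes did, and 10 had a positive difference. Tsc22d3, an anti-inflammatory glucocorticoid target, had 80.3, 88.9 and 132 TPM with letrozole and 59.4, 45.7 and 54.4 TPM untreated (0.88 ± 0.30, adjusted p = 0.95). Errfi1, an inhibitor of the EGF receptor, had 20.5, 19.6 and 31.8 TPM with letrozole and 15.1, 16.8 and 16.1 TPM untreated (0.52 ± 0.21, adjusted p = 1.0), and stood at 0.31 without letrozole replicate 3. Fkbp5, a chaperone partner of the receptor, showed a single high gland, with 10.5, 13.3 and 37.4 TPM with letrozole and 13.5, 10.6 and 11.2 TPM untreated (0.54 ± 0.38), and stood at 0.01 without letrozole replicate 3 and at 0.88 without replicate 1. The mean level of the list was 4.49, 4.54 and 5.72 with letrozole and 4.66, 4.53 and 4.68 untreated, so only letrozole replicate 3 was above the untreated glands.

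Of 14 clock genes 7 had a negative and 7 a positive difference. Wholly higher were 2 members (Per2 and Cry1), beside 1.07% of all genes, and wholly lower 2 (Nr1d1 and Bhlhe40), beside 8.51%. After median-ratio scaling 2 lay wholly higher and 1 wholly lower, beside 4.28% and 5.59% of all genes. Cry1, a repressor of the clock, had 4.11, 4.05 and 5.28 TPM with letrozole and 2.89, 2.51 and 3.29 TPM untreated (0.49 ± 0.21, adjusted p = 1.0). Nr1d1, whose protein opposes the clock activator Arntl, had 21.2, 26.6 and 22.6 TPM with letrozole and 33.4, 27.6 and 43.9 TPM untreated (-0.54 ± 0.27, adjusted p = 1.0). The labels give no hour of tissue collection. Among immediate early genes the median was 0.01, and Fosb had 7.35, 3.76 and 0.30 TPM with letrozole and 1.33, 1.06 and 0.14 TPM untreated (1.08 ± 0.43, adjusted p = 1.0). Fosb stood at 0.50 without letrozole replicate 1 and at 1.84 without replicate 3 (adjusted p = 0.051).

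Immune lists were mostly lower in sign without a gene past the threshold. All 14 interferon-stimulated genes had a negative difference (median -0.33) and 3 lay wholly lower (Usp18, Oas1a and Oasl2), where 8.51% of all genes did. Usp18, which restrains interferon signalling, had 2.69, 4.14 and 4.34 TPM with letrozole and 6.13, 5.70 and 6.05 TPM untreated (-0.58 ± 0.25, adjusted p = 1.0). All 12 B and plasma cell genes were negative (median -0.46), with 4 wholly lower beside 8.51% of all genes, and 1 after median-ratio scaling beside 5.59% of all genes. Igkc, the kappa light chain constant region, had 205, 561 and 210 TPM with letrozole and 495, 617 and 746 TPM untreated (-1.07 ± 0.56, adjusted p = 1.0). For 12 macrophage genes the median was -0.39 and for 9 MHC class II genes -0.44, with 0 of either list wholly apart. T and NK cell genes had a median of -0.01.

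The 10 complement genes had a median of -0.37. C1ra, a protease of the classical pathway, had 25.1, 30.8 and 18.0 TPM with letrozole and 39.2, 33.5 and 36.9 TPM untreated (-0.58 ± 0.26, adjusted p = 1.0), and stood at -0.38 without letrozole replicate 3. In the brown fat list Ucp1, the uncoupling protein, had 0.06, 0.78 and 6.65 TPM with letrozole and 79.5, 8.36 and 9.99 TPM untreated (-3.05 ± 1.5, adjusted p = 1.0), and Dio2, which activates thyroid hormone, 0.18, 0.43 and 0.22 TPM with letrozole and 1.38, 1.04 and 0.64 TPM untreated (-0.65 ± 0.27, adjusted p = 1.0). Both lay wholly lower, 2 of the 10 genes of that list, where 8.51% of all genes did.

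The remaining metabolic and tissue lists had medians between -0.35 and 0.21. White adipocyte genes had a median of 0.02, nuclear-encoded respiratory chain genes 0.05, skeletal muscle genes 0.13 and endothelial genes -0.03. Fatty acid and triglyceride synthesis and cholesterol synthesis genes were both at -0.08. Mitochondrially encoded genes stood at 0.08, erythroid genes at 0.21, lymph node stroma at 0.10, nerve and Schwann cell genes at -0.22, skin keratinocyte genes at -0.04, senescence and p53 genes at -0.24, steroid receptors at -0.12, milk proteins at -0.35 and brown adipocyte genes at -0.25. For the endothelial, fatty acid, cholesterol, T and NK cell, clock and skin keratinocyte lists the sign of the median turned positive under median-ratio scaling. None of the 34 lists, with 391 members in the table, had a member past the threshold.

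**Figure D4:**
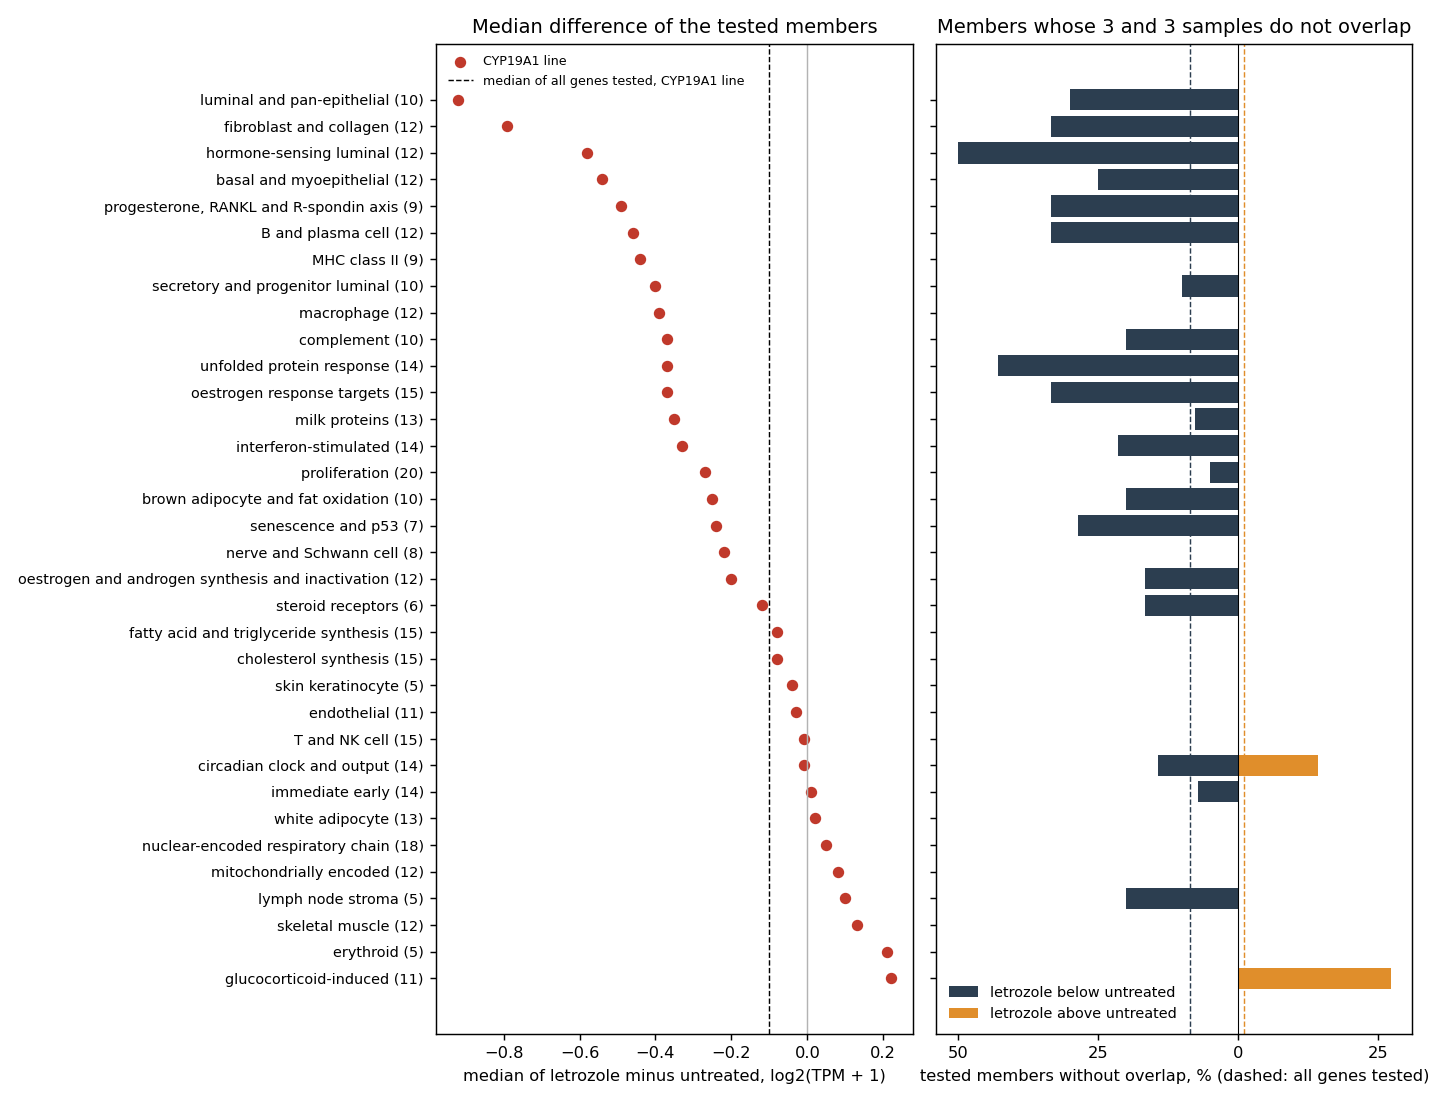
Left, the median difference between letrozole and untreated CYP19A1 glands over the tested members of each list (number in brackets), with the median of all genes as a dashed line at -0.10. Right, the percentage of tested members whose letrozole glands lay wholly below or above the untreated glands, with 8.51% and 1.07% of all genes as dashed lines.

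The Esr1 line was given the same letrozole pellet, and the comparison asks whether the response differed with the transgene. An interaction term found 0 genes past the threshold (limma, 0% of genes tested), with 2277 at an unadjusted p under 0.05 (11.8%) and a smallest adjusted p of 0.084. In the Esr1 line 3184 genes (16.5%) lay wholly lower and 2155 (11.2%) wholly higher with letrozole. Without untreated Esr1 replicate 1 the interaction count was 23, and without CYP19A1 untreated replicate 1 it was 1.

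Side by side, Areg had 3.79, 1.32 and 4.63 TPM with letrozole and 11.04, 4.0 and 9.16 TPM untreated in the Esr1 line (-1.10 ± 0.59), and the interaction was -2.0 ± 0.84 (adjusted p = 0.38). Pgr had 2.52, 1.90 and 2.52 TPM with letrozole and 4.73, 1.33 and 5.23 TPM untreated there (-0.40 ± 0.39; interaction -1.5 ± 0.56, adjusted p = 0.35). For both genes untreated Esr1 replicate 2, the library high in ribosomal RNA, was the lowest untreated gland. Tmed3 differed by -0.28 ± 0.19 in the Esr1 line (interaction -0.97 ± 0.27, adjusted p = 0.26) and Aoc1 by -0.01 ± 0.32 (interaction -1.94 ± 0.46, adjusted p = 0.19).

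Other genes had like differences in both lines. 9530014B07Rik had 0.87, 0.43 and 0.38 TPM with letrozole and 1.95, 1.04 and 2.14 TPM untreated in the Esr1 line, where it fell by 0.79 ± 0.19 (adjusted p = 0.015). Krt8 fell by 1.77 ± 0.41 (adjusted p = 0.014), Krt19 by 1.33 ± 0.39 (adjusted p = 0.042) and R3hdml by 1.06 ± 0.29 (adjusted p = 0.030) there, and Tsc22d3 rose by 1.40 ± 0.30 (adjusted p = 0.010). Their interaction terms had adjusted p of 0.60, 0.86, 0.76, 0.84 and 0.65. The share of all genes past the threshold within the Esr1 line was not counted, so these calls cannot be set against it. Some list medians stood apart between the lines, without a test: the luminal and pan-epithelial list was at -0.92 in the CYP19A1 line and -1.80 in the Esr1 line, proliferation at -0.27 and -1.19, fibroblast and collagen at -0.79 and 0.27, and the oestrogen response targets at -0.37 and 0.14. In the last 2 lists the Esr1 line had a low untreated library, replicate 2, the one high in ribosomal RNA. Its target level was 3.86, against 4.51 and 4.34 in the other untreated Esr1 glands and 4.16, 4.0 and 4.08 with letrozole, and its fibroblast and collagen level was 5.51, against 6.94 and 6.43 in the other untreated glands and 6.48, 6.57 and 6.53 with letrozole. In both lines 5 of the 15 targets lay wholly lower with letrozole, where 8.51% of all genes did in the CYP19A1 line and 16.5% in the Esr1 line. Wholly higher were 0 targets in the CYP19A1 line and 2 in the Esr1 line, beside 1.07% and 11.2% of all genes.

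**Figure D5:**
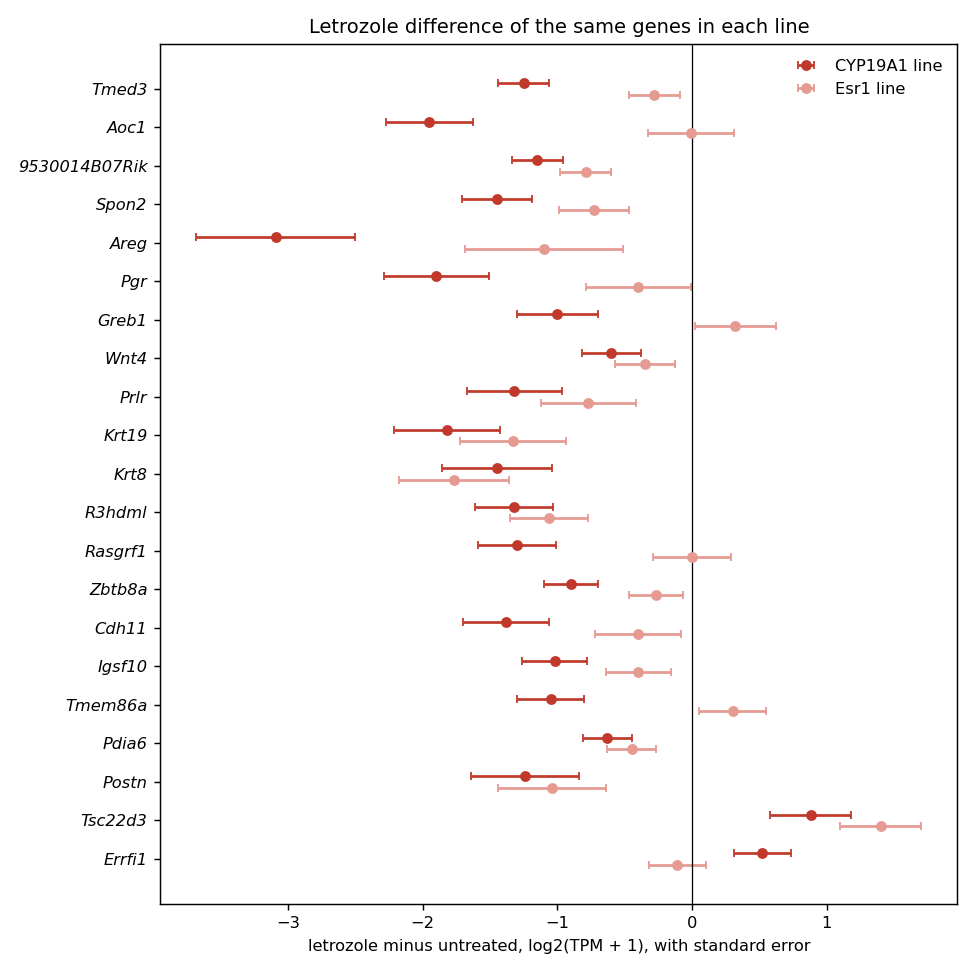
Letrozole minus untreated difference (log2 of TPM + 1, with its standard error) of 21 genes in the CYP19A1 line and the Esr1 line. Areg was at -3.09 and -1.10, Tmed3 at -1.25 and -0.28, and Krt8 at -1.45 and -1.77, and no interaction term passed.

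Tamoxifen, which binds the oestrogen receptor, was given to other CYP19A1 mice for the same time, at its own dose. Letrozole glands had 47 genes lower (0.243% of genes tested) and 1 higher (0.00517%) than tamoxifen glands at an adjusted p under 0.05, and 1950 (10.1%) at an unadjusted p under 0.05. The median difference over all genes was -0.16, and with median-ratio scaling 39 genes were lower and 5 higher. The count was 24 without letrozole replicate 1, 28 without tamoxifen replicate 1 and 21 without tamoxifen replicate 2. Tmed3 was at -0.74 ± 0.19 against tamoxifen (adjusted p = 0.15).

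The genes below were far lower with letrozole than with tamoxifen. Mmd2 had 0.02, 0.15 and 0.18 TPM with letrozole and 42.1, 32.9 and 31.0 TPM with tamoxifen (-5.02 ± 0.28, adjusted p = 1.9e-09), and untreated glands 0.38, 0.92 and 1.04 TPM. Akr1cl, an aldo-keto reductase relative, had 0.06, 0.50 and 0.09 TPM with letrozole and 189, 158 and 149 TPM with tamoxifen (-7.11 ± 0.72, adjusted p = 4.0e-05). Oxtr, the oxytocin receptor and the 1 basal list member that passed here, had 62.5, 48.0 and 5.95 TPM with letrozole and 261, 212 and 220 TPM with tamoxifen (-3.05 ± 0.58, adjusted p = 0.026). The other genes of this kind were Aqp5, a water channel (-3.55 ± 0.62, adjusted p = 0.015), Nmu, neuromedin U (-3.31 ± 0.35, adjusted p = 4.0e-05) and the keratin gene Krt4 (-3.26 ± 0.37, adjusted p = 8.2e-05). Apart from Mmd2, no untreated level is given for these genes, so how their tamoxifen glands stood to untreated glands is not shown.

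In the other direction, Odf3l2, an outer dense fibre family gene, had 4.32, 2.28 and 3.38 TPM with letrozole and 0.74, 0.66 and 0.55 TPM with tamoxifen (1.36 ± 0.25, adjusted p = 0.017). Spon2 separated the drugs as well: tamoxifen glands had 15.98, 15.4 and 15.01 TPM, and letrozole glands were lower by a log2 difference of -1.61 ± 0.26 (adjusted p = 0.0053). Tmem53 was at -0.61 ± 0.12 (adjusted p = 0.030) and Upk2 at -0.86 ± 0.18 (adjusted p = 0.042). Tamoxifen glands differed from untreated glands by 0.16 ± 0.26 for Spon2 and 0.02 ± 0.12 for Tmem53. No untreated level is given for Odf3l2.

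Areg was low with both drugs, at 0.45, 1.42 and 1.70 TPM with letrozole and 0.44, 0.28 and 0.54 TPM with tamoxifen (0.58 ± 0.59, adjusted p = 0.73). For Pgr the tamoxifen glands had 6.71, 8.80 and 8.29 TPM, above all 3 letrozole glands, with a difference of -1.49 ± 0.39 (adjusted p = 0.17). The hormone-sensing luminal level was 1.88, 2.24 and 2.59 with letrozole and 2.53, 2.66 and 2.45 with tamoxifen, which overlap.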

How the data were processed

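RNA was measured in 24 mouse mammary gland libraries; per the labels, total RNA was used with its strand kept, after removal of ribosomal RNA. The authors deposited 1 table of TPM values for 55487 genes, each column summing to about 1000000. The submitters' processing notes list mm10, STAR 2.7.9a and RSEM 1.3.1, besides Trim Galore 0.6.5 and FastQC 0.11.9, without their roles. TPM keeps no depth and depends on everything else in a library.

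Genes with 1 TPM or more in at least 3 of 24 samples entered a limma fit of log2(TPM + 1) values (version 3.58.1 under R 4.3.3, trend and robust), all 24 samples in 1 fit of 8 groups, with Benjamini-Hochberg adjustment over all genes of a comparison. The code was tested on simulated data. List levels are means of log2(TPM + 1). Where rows share a symbol, the row with the highest mean was used.

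The members, lists and tests were chosen with earlier results of these data known. Named are Esr1, Cyp19a1, Pgr, Greb1 and Areg; genes past the threshold with an established symbol, 2 TPM or more and no overlap; the 15 such genes with the smallest p; the 2 members with the smallest p of each of 34 lists; and up to 5 each way against tamoxifen. Other genes were named after their values were seen. Promoters of Spon2, Upk2 and Krt19 were not used. The covariates for epithelial and collagen level were chosen after seeing the data.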

Additional observations from a re-analysis of the deposited data

Results flagged for a closer look

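In 4 of the genes named in the text every letrozole gland of the CYP19A1 line lay below the untreated glands while every letrozole gland of the Esr1 line lay above its untreated glands. They were picked by this pattern from a search that also covered all list members. Of all genes tested, 8.51% lay wholly lower in the CYP19A1 line and 11.2% wholly higher in the Esr1 line. The share of all genes with both was not counted, so the 4 genes cannot be set against it. Tmem86a, a lysoplasmalogenase gene, had 1.31, 2.54 and 2.24 TPM with letrozole and 3.43, 6.29 and 6.30 TPM untreated in the CYP19A1 line. In the Esr1 line it had 3.55, 2.71 and 2.50 TPM with letrozole and 2.30, 1.77 and 2.43 TPM untreated. The differences were -1.05 ± 0.25 and 0.30 ± 0.25, and the interaction, -1.36 ± 0.35, missed the threshold (limma adjusted p = 0.24). Nr1d1, the clock gene, had 21.2, 26.6 and 22.6 TPM with letrozole and 33.4, 27.6 and 43.9 TPM untreated in the CYP19A1 line, and 43.7, 41.6 and 46.3 TPM with letrozole and 36.6, 12.3 and 31.9 TPM untreated in the Esr1 line (interaction -1.35 ± 0.38, adjusted p = 0.26). Bhlhe40, a clock repressor, had 18.9, 23.4 and 19.6 TPM with letrozole and 25.3, 27.6 and 25.3 TPM untreated in the CYP19A1 line, and 26.1, 25.8 and 26.1 TPM with letrozole and 19.9, 10.7 and 21.3 TPM untreated in the Esr1 line (interaction -0.94 ± 0.31, adjusted p = 0.32). Mmd2 had 0.02, 0.15 and 0.18 TPM with letrozole and 0.38, 0.92 and 1.04 TPM untreated in the CYP19A1 line, and, near 0 throughout, 0.12, 0.10 and 0.08 TPM with letrozole and 0.05, 0.01 and 0.06 TPM untreated in the Esr1 line (interaction -0.74 ± 0.40, adjusted p = 0.47). The lowest of the untreated Esr1 values of Nr1d1 and of Bhlhe40, 12.3 and 10.7 TPM, came from the library with 17.4% of TPM in ribosomal RNA models.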

How the results depend on the processing

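The 4 genes past the threshold between letrozole and untreated CYP19A1 glands became 1, Tmed3, with a pseudocount of 0.1 and 0 without a filter on low values. Aoc1, Mir7034 and 9530014B07Rik, all low in level, missed the threshold under both settings. With the filter over the compared groups 4 genes passed, 3 of them shared, and Aoc1 was not tested. The count was 9 with median-ratio scaling and 7 after rescaling without 7S, ribosomal and mitochondrial RNA. It was 0 with the epithelial or the collagen level as a covariate. With only the compared groups fitted it was again 4, but 1 higher and 3 lower, and 1 of them, Mir7034, was shared; Tmed3, Aoc1 and 9530014B07Rik then had adjusted p of 0.25, 0.71 and 0.29. Leaving out 1 library gave 0 to 3. Replicate numbers showed little pairing of the samples. The correlations of same-numbered deviations were 0.04, 0.05 and 0.01, against -0.08 to 0.03 for pairs of different numbers. With the replicate number as a block the count was 0. The count of genes whose letrozole response differed between the lines, 0, became 9 without a filter, 2 with the filter over the compared groups, 77 with only those groups fitted, 1 with median-ratio scaling, 38 with the muscle level as a covariate and 4 without trend and robust settings; leaving out 1 library gave 0 to 23. The 48 genes between letrozole and tamoxifen became 21 with the collagen level, and 21 to 42 with 1 library left out; the replicate block gave 41. Of 914 values of 54 named genes under these settings, 3 turned in sign: Top2a to 0.11 with the epithelial level, and Esr1 to 0.00 and Col1a1 to 0.03 with the collagen level. In the oestrogen target and hormone-sensing lists 1 member, Areg, passed with median-ratio scaling; the other 32 lists had none past the threshold under any of the 17 settings. The cause was not tested for any of these. Depth is unknown, which limits what can be said of genes under 1 TPM.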

Other observations

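Major urinary protein genes, which encode secreted carriers of pheromones, varied widely between glands. Mup22 had 2.08, 50.1 and 1.82 TPM with letrozole and 265, 90.6 and 256 TPM untreated in the CYP19A1 line (-4.60 ± 1.19, limma adjusted p = 0.45), without overlap. Its Esr1 line values were 125, 108 and 32.7 TPM with letrozole and 60.0, 29.5 and 44.9 TPM untreated. Mup14 (-1.79 ± 0.42, adjusted p = 0.30) and Mup10 (-1.76 ± 0.44, adjusted p = 0.39) were also lower in all 3 letrozole glands of the CYP19A1 line. These genes are near-identical copies that can trade reads, so their single levels are uncertain, and they were named after their values were seen.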
